A study of Mus musculus with 4 samples.

Results

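The mouse genes for the fibroblast growth factor (FGF) receptors, Fgfr1, Fgfr2, Fgfr3 and Fgfr4, were read on 4 Affymetrix GeneAtlas arrays. They were taken as every probe set whose single gene symbol in the platform annotation is one of these names. That gave 4 probe sets, 1 per gene, of the 41345 on the array, of which 23521 carry 1 symbol and stand for 22180 genes. A second probe set against which to set a receptor's values was not found for any of the 4 genes.

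The cells were E14tg2a, a mouse embryonic stem cell line that grows without feeder cells, cultured in serum with LIF in every group. Cells labelled wild type (WT) were measured at d0 and at d2, and cells labelled Ctbp1/2 DKO, a double knockout of the corepressor genes Ctbp1 and Ctbp2, at d0 and at d2. The series title names overexpression of PRDM14, so the time labels were taken as days 0 and 2 of overexpression. The labels do not say how overexpression was induced, whether the d0 cells carry the construct, which part of Ctbp1 and Ctbp2 was deleted, or whether the DKO line is 1 clone. No group is labelled as d2 without overexpression, so PRDM14 and time in culture cannot be told apart. There was 1 array per group, so a difference between 2 arrays carries no error and no test. Where 4 values of a gene follow each other, the WT pair (d0, then d2) comes first and the DKO pair (d0, then d2) second. The deposited values are treated as log2, on which a difference of 1 is 2-fold; the log base is assumed.

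FGF receptors are receptor tyrosine kinases. A ligand bound with heparan sulfate pairs the receptors, which phosphorylate each other and the adaptor FRS2 and pass the signal through GRB2, SOS and RAS to the kinase ERK. In embryonic stem cells FGF4 made by the cells themselves acts mainly through FGFR1 and pushes them out of naive pluripotency, and in the blastocyst FGFR1 and FGFR2 direct cells to primitive endoderm. PRDM14 is a DNA-binding repressor of naive pluripotent and germ cells for which FGF receptor genes are known targets. CtBP proteins do not bind DNA by themselves and are recruited by other repressors.

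The promoters are shown because the study concerns a DNA-binding repressor of these genes. RefSeq windows of GRCm38.p6, from 250 bases before to 50 bases after a transcription start, were found for 3 of the 4 members, Fgfr2, Fgfr3 and Fgfr4. They are written 5′ to 3′ in the direction of transcription, with CpG dinucleotides in capitals.
Fgfr2, chr7:130266759-130267058, minus strand: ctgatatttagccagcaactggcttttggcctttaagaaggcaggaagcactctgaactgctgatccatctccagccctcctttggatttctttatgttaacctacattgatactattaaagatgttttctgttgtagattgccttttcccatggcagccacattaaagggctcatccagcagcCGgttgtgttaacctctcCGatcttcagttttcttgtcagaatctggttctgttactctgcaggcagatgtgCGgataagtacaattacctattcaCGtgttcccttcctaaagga
Fgfr3, chr5:33721474-33721773, plus strand: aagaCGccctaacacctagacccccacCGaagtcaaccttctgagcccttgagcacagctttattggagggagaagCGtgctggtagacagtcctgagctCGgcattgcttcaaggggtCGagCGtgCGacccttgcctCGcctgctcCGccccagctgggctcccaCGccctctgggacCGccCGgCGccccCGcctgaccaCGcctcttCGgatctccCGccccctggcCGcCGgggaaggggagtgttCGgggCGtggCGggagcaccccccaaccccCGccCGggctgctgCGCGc
Fgfr4, chr13:55152568-55152867, plus strand: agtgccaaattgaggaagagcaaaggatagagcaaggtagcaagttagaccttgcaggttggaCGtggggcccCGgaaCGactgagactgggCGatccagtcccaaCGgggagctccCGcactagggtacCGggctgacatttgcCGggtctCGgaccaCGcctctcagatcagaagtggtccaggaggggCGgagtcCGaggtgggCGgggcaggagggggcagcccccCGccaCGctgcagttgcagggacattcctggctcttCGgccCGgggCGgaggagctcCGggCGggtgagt
The Fgfr2 window held 4 CpG dinucleotides and 43.7% G and C. The Fgfr3 window held 26 CpG dinucleotides and 69.7% G and C, and a second Fgfr3 window from 33722056 to 33722355 on chromosome 5 held 30 and 73.0%. The Fgfr4 window held 20 CpG dinucleotides and 65.3% G and C. Over all 32851 windows of this length in the RefSeq table the medians were 7 CpG dinucleotides and 52.7%, so the Fgfr2 window lay below both medians and the others above. Each window was searched on both strands for the PRDM14 motif GGTCTCTAA, for CAGGTG, the E-box of the CtBP-recruiting ZEB repressors, and for the GC box GGGCGG. None of these motifs is contained in another. The PRDM14 motif is not in any of the 4 windows, and 0.256% of all windows hold it. CAGGTG is not in them either, against 20.2% of all windows. The GC box was found 4 times in the Fgfr3 window shown, 2 times in the second Fgfr3 window, 4 times in the Fgfr4 window and not in the Fgfr2 window, against at least 1 match in 35.7% of all windows. A match describes the letters, and a window without one says nothing of binding.

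The genes named as deleted were read first. Ctbp1 measured 0.63 at d0 and 0.32 at d2 in WT, and 0.56 at d0 and 0.42 at d2 in DKO. Ctbp2 measured 0.55 at d0 and 0.46 at d2 in WT, and 0.55 at d0 and 0.42 at d2 in DKO. At d0 neither gene was clearly lower on the array labelled DKO, and at d2 Ctbp1 was higher there. A probe set outside the deleted part checks nothing, so these values do not bear out the DKO label, and WT and DKO stand for arrays with these labels in every direction given.

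Values over the whole array were low. The array medians lay between 0.35 and 0.41, and between 9.50% and 11.4% of probe sets exceeded 1. The labelled cell type could not be read from its defining markers: of 9 core pluripotency genes on the array none had a mean above 1, and Pou5f1 lay between 0.51 and 0.75. Of the 13 naive genes 2 did, Dppa3 and Nr5a2. Actb, which cells express at a high level, lay between -0.06 and 0.55, and Prdm14 between 0.24 and 0.68, with WT values of 0.34 and 0.42 and DKO values of 0.24 and 0.68. The Prdm14 d2 values were higher than those at d0 in both genotypes, by less than 1.5-fold in each. Of all genes 51.3% were higher at d2 in WT and 55.4% in DKO. The Prdm14 values therefore do not bear out the overexpression on which the reading of d0 and d2 rests. The sources used here do not settle whether the table is plain RMA (robust multi-array average) output, or whether the annotation's probe sets match its rows. A value named for a receptor may therefore not measure that gene's transcript. The DKO d2 array had Pearson correlations of 0.727 with each of the other arrays across probe sets, where the other pairs had 0.827 to 0.832. Of the differences between arrays, the DKO change, the difference between changes and DKO against WT at d2 use this array. The WT change and DKO against WT at d0 do not use it. The filter and the choice of genes of like level, both described below, use all arrays. The shares of genes given beside any difference therefore depend on DKO d2 too. So do the limma estimates, the shares that combine the WT and DKO changes, and the distances between profiles.

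Fgfr1, the main FGF receptor of embryonic stem cells, measured 1.39 at d0 and 0.90 at d2 in WT, and 1.75 at d0 and 0.99 at d2 in DKO. Both d0 values lay above both d2 values, and within each day the DKO value was the higher one. Fgfr2, the receptor for FGF7 and FGF10 in its epithelial form, measured 0.70 at d0 and 0.29 at d2 in WT, and 0.57 at d0 and 0.75 at d2 in DKO. The WT d2 array was low for Fgfr2 and the other arrays lay close to each other, so the days overlapped.

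Fgfr3, known as a brake on bone growth, measured 0.06 at d0 and -0.06 at d2 in WT, and 0.12 at d0 and 0.00043 at d2 in DKO. All 4 Fgfr3 values lay below 0.30, the 40th percentile of all values on the arrays, below which a value is not shown to be above background. Fgfr4, the receptor that works with the co-receptor KLB in liver, measured 0.58 at d0 and 0.49 at d2 in WT, and 0.52 at d0 and 0.37 at d2 in DKO. Its values spanned 0.21 in all, with both d0 values above both d2 values. A gene passed the filter when at least 1 array reached 0.30, which 20015 of the 22180 genes did. Fgfr1, Fgfr2 and Fgfr4 passed and Fgfr3 did not. Passing does not show that a gene was above background, since 0.30 is a percentile and not a measure of detection. Fgfr1 and Fgfr4 reached 0.30 on all 4 arrays and Fgfr2 on 3. The levels of different probe sets depend on their probes, so the 4 genes are not ordered by abundance. RNA of whole cultures was measured, and fewer cells expressing a receptor cannot be told apart from less RNA per cell.

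**Figure D1:**
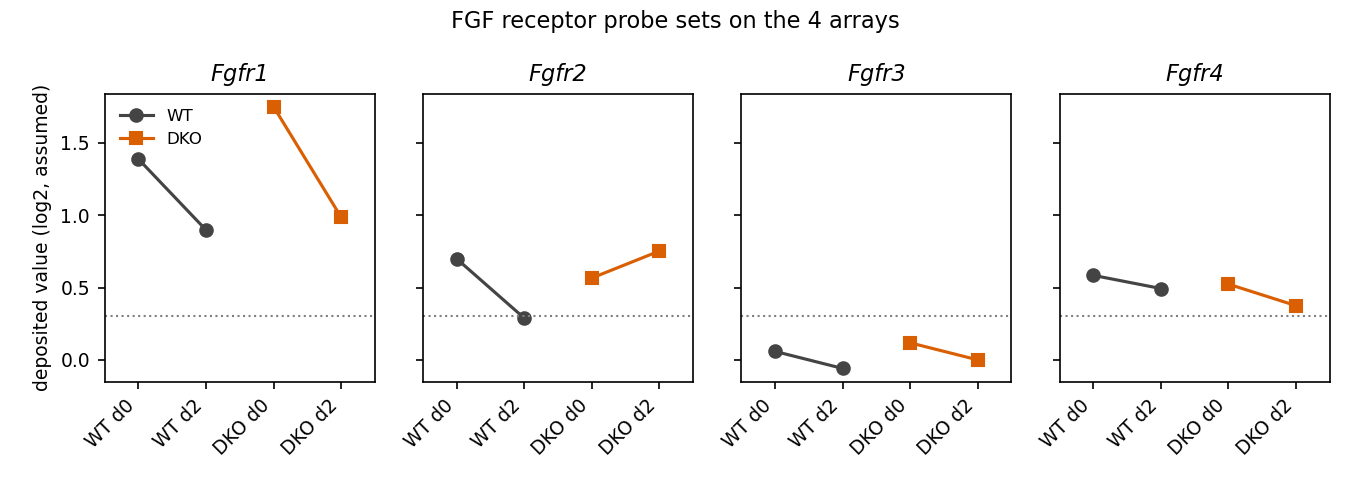
Deposited value (log2, assumed; y axis) of each FGF receptor probe set on the 4 arrays (x axis), with d0 and d2 of a genotype joined; each point is 1 array and the dotted line is 0.30, the 40th percentile of all values. Fgfr1 runs from 1.39 to 0.90 in WT and from 1.75 to 0.99 in DKO, and Fgfr3 stays under the dotted line.

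In WT cells d2 was compared with d0, the interval over which repression of the receptor genes by PRDM14 would be sought. All 4 receptors had lower values at d2 than at d0 in WT, with Fgfr3 below the filter level on all arrays and Fgfr2 on WT d2. The difference was -0.49 for Fgfr1, a 1.40-fold lower value. For Fgfr2 it was -0.41, of uncertain size because the WT d2 value of 0.29 lies below 0.30 and is not shown to be above background. For Fgfr3 it was -0.12 and for Fgfr4 -0.09. No member reached 2-fold or 1.5-fold, which 0.355% and 3.39% of the 20015 genes did either way. Of all genes 51.3% were higher at d2 and most of the others lower, so the direction alone does not set the receptors apart.

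To set these sizes against genes of like level, each member was compared with the 1000 other genes nearest to it in mean value over the 4 arrays, among all 22180. For Fgfr1 these had means from 0.93 to 1.58, and the middle 95% of their WT differences ran from -0.75 to 0.67. Fgfr1 lay inside that range, and 7.9% of the 1000 genes had a difference as low or lower. For Fgfr2 the range was -0.50 to 0.56, and 5.4% lay as low or lower. That position of Fgfr2 rests on the same WT d2 value below 0.30. The shares were 26.1% for Fgfr3 and 33.6% for Fgfr4, both in the middle of their ranges.

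The same interval was then compared on the arrays labelled DKO. Fgfr1 was again the member with the lowest d2 value relative to d0, at -0.76, a 1.70-fold lower value. Fgfr2 differed in the other direction, at 0.19. Fgfr3 differed by -0.12 and Fgfr4 by -0.15. No member reached 2-fold, which 0.984% of genes did, and Fgfr1 was the 1 member that reached 1.5-fold lower, as 2.3% of all genes did. That share counts lower genes only, where the WT shares count both directions. It also rests on the scaling. Past 1.5-fold 766 genes were higher and 460 lower as deposited, and 599 and 612 with the array medians set equal.

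The genes of like level spread more widely in DKO than in WT. For Fgfr1 the middle 95% ran from -0.91 to 0.90, and 3.9% of the 1000 genes were as low or lower. For Fgfr2 it ran from -0.57 to 0.75, with 71.4% at or below its value. The shares were 21.4% for Fgfr3 and 21.9% for Fgfr4. Every member lay inside the middle 95% of genes of its level in both genotypes.

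**Figure D2:**
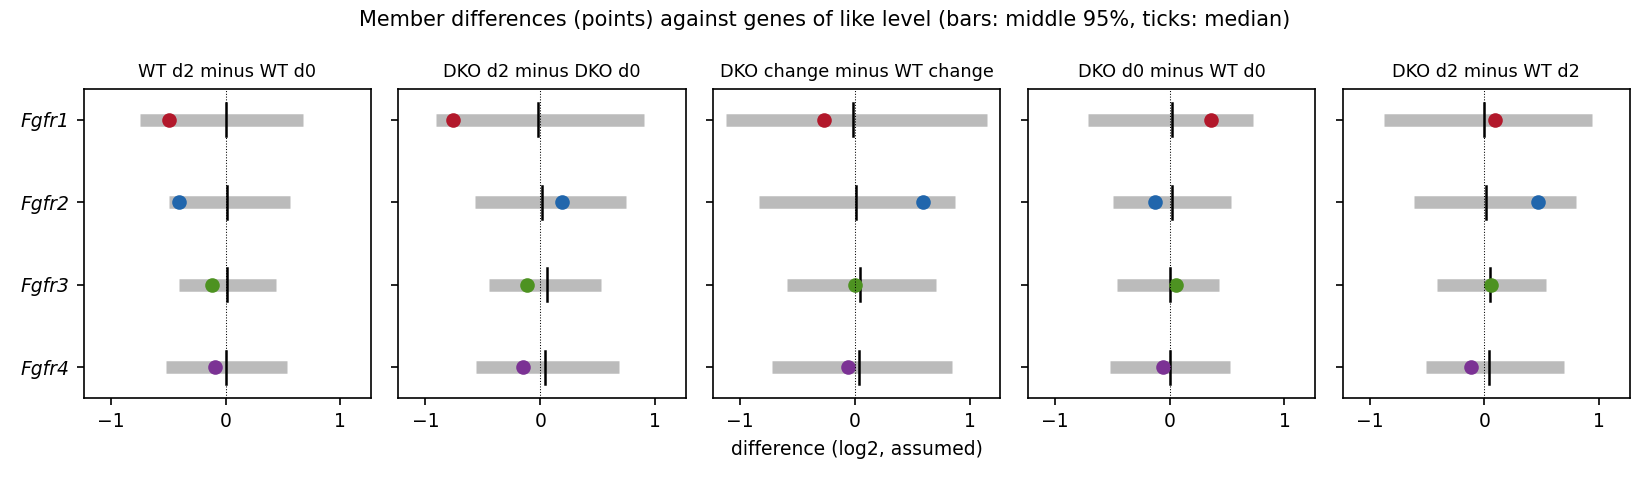
Difference (log2, assumed; x axis) of each member (coloured point; y axis) in 5 comparisons, with the median (tick) and middle 95% (grey bar) of the 1000 genes nearest to it in mean level. Every point lies on its grey bar; the Fgfr1 points of the d2 changes, at -0.49 in WT and -0.76 in DKO, lie toward the low end.

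The WT and DKO changes use separate arrays, and Fgfr1, Fgfr3 and Fgfr4 were lower at d2 in both. Among all 20015 genes 22.0% were lower in both genotypes. For these 3 members both d2 values also lay below both d0 values, as they did in 14.4% of all genes. Of the 1000 genes at the level of Fgfr1, 172 (17.2%) had both d2 values below both d0 values. At or below Fgfr1 in WT and also in DKO lay 2 of them (0.2%). Such a joint share is smaller than each single share, here 7.9% in WT and 3.9% in DKO. The joint shares of the other members at their own levels were 3.7% for Fgfr2, 5.9% for Fgfr3 and 7.6% for Fgfr4. The mean of the WT and DKO changes of Fgfr1 was -0.63, and 2.5% of the 1000 genes at its level had a mean as low or lower. The same shares for the mean change were 23.8% for Fgfr2, 15.7% for Fgfr3 and 18.8% for Fgfr4. These shares describe the arrays and are no tests, and Fgfr1 was examined with its differences already known.

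Fgfr3 had the same d2 difference in WT and DKO to within 2e-05, which was the case for 79 of the 41345 probe sets (0.191%). Its values were all below 0.30 and not shown to be above background, so this equality is given as a property of the deposited numbers.

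**Figure D3:**
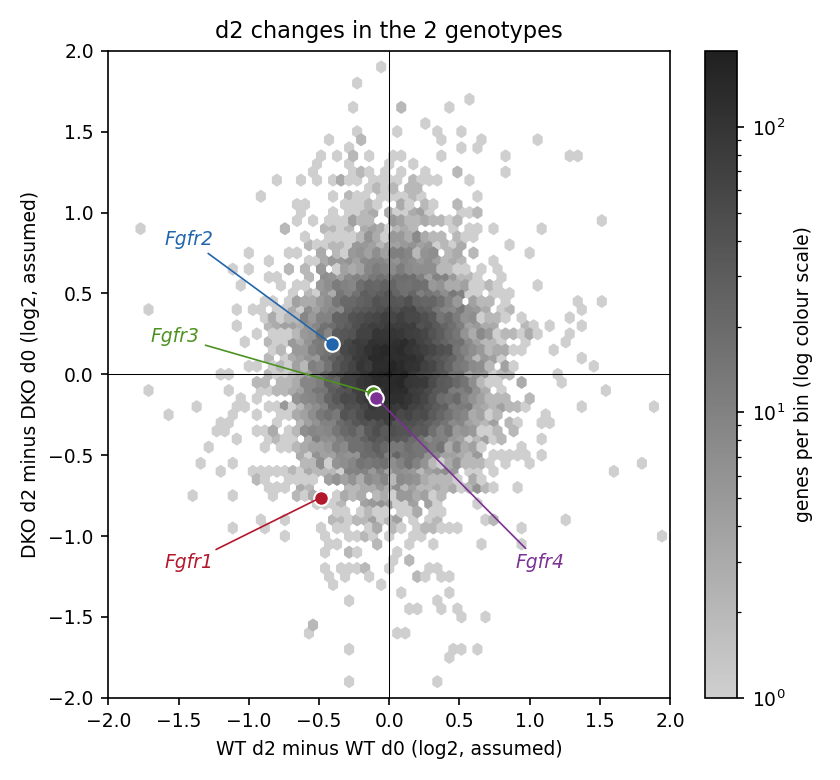
d2 minus d0 in WT (x axis) against d2 minus d0 in DKO (y axis), both log2 (assumed), for the 20015 genes as grey bins shaded by the number of genes, with the members as coloured points; 13 genes lie outside the axes. Fgfr1 is low on both axes, Fgfr2 is low in WT and above 0 in DKO, and Fgfr3 and Fgfr4 lie near the centre.

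The change shared by both genotypes was tested with limma in an additive fit of day and genotype over the 20015 genes. With 4 arrays this leaves 1 residual degree of freedom, and any unequal response of the genotypes counts as error. The estimate for Fgfr1 was -0.63 with a standard error of 0.24. Its unadjusted p in limma was 0.0302, with a Benjamini-Hochberg adjusted p of 0.923. The difference was therefore not past the threshold of 0.05 over all genes, although both genotypes showed its direction. In limma 0 genes passed after adjustment and 1031 (5.15%) had an unadjusted p under 0.05, a share close to that threshold itself. Fgfr2 was estimated at -0.11 with a standard error of 0.19 (limma adjusted p 0.975) and Fgfr4 at -0.12 with a standard error of 0.15 (limma adjusted p 0.952). Fgfr3 did not enter the fit because it did not pass the filter.

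Whether the d2 change differed between the genotypes was read by subtracting the WT change from the DKO change, for which these arrays allow no test. Fgfr2 had a value of 0.60, since it was lower at d2 in WT and higher in DKO; its size is uncertain because it uses the WT d2 value below 0.30. This was past 1.5-fold higher, as were 1520 genes (7.59% of all), and a further 1136 were past 1.5-fold lower. Opposite signs in the 2 genotypes were seen in 48.5% of all genes. With the array medians set equal the Fgfr2 value was 0.56, after quantile normalization 0.54 and after cyclic loess 0.55, all short of 1.5-fold. Among genes at its level 92.3% lay at or below its value. Fgfr1 had -0.27, Fgfr3 0.0 and Fgfr4 -0.06, all near the middle of the genes at their levels, with 29.6%, 44.5% and 39.9% at or below them. No member reached 2-fold, which 2.45% of genes did.

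DKO and WT were then compared within each day. Reading the d0 arrays as cells before overexpression is an assumption, since the Prdm14 values do not bear out overexpression. At d0 Fgfr1 was 0.36 higher in DKO, with 85.5% of genes at its level at or below that. Fgfr2 differed by -0.13, Fgfr3 by 0.06 and Fgfr4 by -0.06 at d0. No member reached 2-fold or 1.5-fold at d0, which 0.355% and 3.38% of genes did. At d2 Fgfr2 was 0.46 higher in DKO, with 91.2% of genes at its level at or below, and Fgfr1 was 0.09 higher. Fgfr3 differed by 0.06 and Fgfr4 by -0.12 at d2. No member reached 2-fold or 1.5-fold at d2, which 0.964% and 6.15% of genes did. The comparisons within a day use the same arrays as the d2 changes and repeat their values. The Fgfr2 difference at d2, for example, rests on the same WT d2 value below 0.30 as its WT change. In the limma fit the genotype difference shared by both days was 0.23 with a standard error of 0.24 for Fgfr1 (adjusted p 0.966), 0.17 with 0.19 for Fgfr2 (adjusted p 0.970) and -0.09 with 0.15 for Fgfr4 (adjusted p 0.981). Over all genes limma gave 0 calls after adjustment and 984 genes (4.92%) at an unadjusted p under 0.05.

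Markers of primitive endoderm, a cell type that uses FGF receptors, were read beside these values. Their 10 genes all passed the filter, and the sum of their log2 values was 6.01 at d0 and 5.09 at d2 in WT, and 6.92 at d0 and 5.97 at d2 in DKO. The sum differed by -0.92 in WT and -0.95 in DKO, of which Gata6 alone made -0.55 and -0.65. By gene, 5 of the 10 were higher and 5 lower at d2 in WT, and 3 higher and 7 lower in DKO, so the list did not share a direction in WT. Gata6, its main transcription factor, measured 0.88 at d0 and 0.32 at d2 in WT, and 1.27 at d0 and 0.62 at d2 in DKO. The array order of Gata6 was that of Fgfr1, DKO d0 and WT d0 above DKO d2 and WT d2. Fgfr3, below 0.30 on all arrays, had this order too, and the share of all genes with it was not counted. Gata4, the partner of Gata6, measured 0.47, 0.20, 0.70 and 0.53, and Sox17 0.42, 0.49, 0.60 and 0.35. The trophoblast list, 10 of 10 past the filter, summed to 5.53, 5.29, 6.14 and 6.86, with 5 genes higher and 5 lower at d2 in DKO. The sum was highest on DKO d2, where Fgfr2 and the array median were also highest. The sums of the core pluripotency list (3.68, 4.16, 4.20 and 5.18) and of the primed list (6.16, 5.17, 5.96 and 6.33) were highest on that array too. Other lists were not: the naive list (7.97, 7.99, 7.79 and 7.95) was highest on WT d2. The list of cell-wide control genes (12.07, 11.76, 12.11 and 11.97) was highest on DKO d0. Cdx2, a defining gene of trophoblast, lay at 0.04, 0.06 and 0.07 on the first 3 arrays and at 0.46 on DKO d2. The first 3 values lay below 0.30, so Cdx2 passed the filter only through DKO d2. Other trophoblast genes went the other way in DKO, Eomes from 0.71 to 0.53 and Hand1 from 0.75 to 0.66. Elf5, Gata3 and Tfap2c were also lower at d2 in DKO. The part of these cell types in the receptor values was not tested. The fibroblast list, with 7 of 10 genes past the filter and Postn, Lum and Dcn below it, summed to 4.75, 5.09, 6.14 and 5.69.

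The other genes of the pathway were taken from 7 lists with 89 genes, of which 81 were on the array under 1 symbol and 74 passed the filter. In WT 32 of the 74 were higher at d2, with a median of -0.03, against 51.3% and 0.01 over all genes. In DKO 39 were higher, with a median of 0.01, against 55.4% and 0.04. None of the 74 reached 2-fold in WT, where 0.355% of all genes did. In DKO 1 did, against 0.984% of all genes. It was Ephb4, a receptor for ephrin B2, at 1.11, with values of 0.37, 0.34, 0.29 and 1.40. In limma 0 of the 74 passed after adjustment for the shared change, as 0 of all genes did. An unadjusted p under 0.05 in limma was found for 3 of the 74, against 5.15% of all genes. These counts do not set the pathway apart.

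Of the 16 ligands counted 6 were higher at d2 in WT and 8 in DKO. Fgf16 measured 1.22, 0.70, 1.19 and 0.63, so both d2 values lay below both d0 values, with differences of -0.51 and -0.56. Fgf6, a ligand of muscle, differed by -0.01 in WT and -0.56 in DKO. Fgf2, the ligand used to keep primed cells, differed by 0.27 and 0.23, and Fgf17 by -0.15 and -0.22. Fgf4, the ligand that embryonic stem cells make, measured 0.59, 0.77, 0.50 and 0.59 and was named apart from the rule. No ligand reached 1.5-fold in either genotype.

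Of the 8 co-receptors, proteoglycans and the decoy receptor Fgfrl1, 3 were higher in WT and 5 in DKO. The glypican Gpc1, whose heparan sulfate holds FGF at the cell surface, differed by -0.13 in WT and 0.39 in DKO. A second Gpc1 probe set differed by -0.49 and -0.36, so the probe sets of this gene gave opposite signs in DKO. Gpc4 differed by -0.39 and 0.03, Gpc3 by 0.20 and -0.05, and Fgfrl1 by 0.01 and -0.23.

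The adaptors had the lowest share of higher members among the 7 lists, 3 of 9 in WT and 2 of 9 in DKO, with medians of -0.09 and -0.09. Shc1, which links receptors to GRB2, differed by -0.23 and -0.31, and Sos1, the exchange factor for RAS, by -0.15 and -0.14. Plcg1, a phospholipase that binds the FGF receptor tail, differed by -0.06 and -0.38, and Frs3 by 0.08 and 0.25. In the RAS-ERK cascade 4 of 6 were higher in each genotype, with medians of 0.16 and 0.09. Map2k2, a kinase of ERK, differed by 0.54 and 0.31 and Araf by 0.49 and 0.30. Map2k1 differed by 0.22 and 0.11, and Braf by -0.35 and 0.06. None of these adaptors or kinases reached 1.5-fold.

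The feedback inhibitors and the ETS factors are the usual readout of FGF-ERK signalling. Of 10 inhibitors 4 were higher in WT and 5 in DKO. Spry2, an inhibitor of receptor tyrosine kinases, measured 0.78 and 1.09 in WT and 0.93 and 1.37 in DKO, differences of 0.31 and 0.44. Dusp6, the ERK phosphatase, differed by -0.14 and -0.47, and by 0.39 and -0.39 on its second probe set. Dusp5 differed by 0.33 and 0.29 and Spred3 by -0.23 and -0.51. The inhibitors did not share a direction. Of 9 target factors 5 were higher in each genotype. Etv4 differed by -0.61 in WT, past 1.5-fold lower as were 1.55% of all genes (3.39% either way), and by 0.14 in DKO. Ier3 differed by -0.25 and -0.40, Egr1 by 0.05 and 0.18, and Ier2 by 0.17 and 0.21.

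Of the 16 other receptor tyrosine kinases counted, 7 were higher in WT and 10 in DKO, with medians of -0.02 and 0.08. Kdr, the main VEGF receptor, differed by 0.60 in WT and -0.45 in DKO. Pdgfra, a marker of primitive endoderm, differed by 0.06 and 0.50, Igf1r by -0.12 and 0.52 and Ddr1 by 0.11 and 0.30. Fgfr1 in DKO, at -0.76, lay outside the range these kinases spanned on the low side, where the lowest was Kdr. The kinases were not matched to Fgfr1 in level. Among genes of its own level Fgfr1 lay inside the middle 95%, from -0.91 to 0.90. Ephb4 in DKO, at 1.11, lay farther from 0 than Fgfr1.

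**Figure D4:**
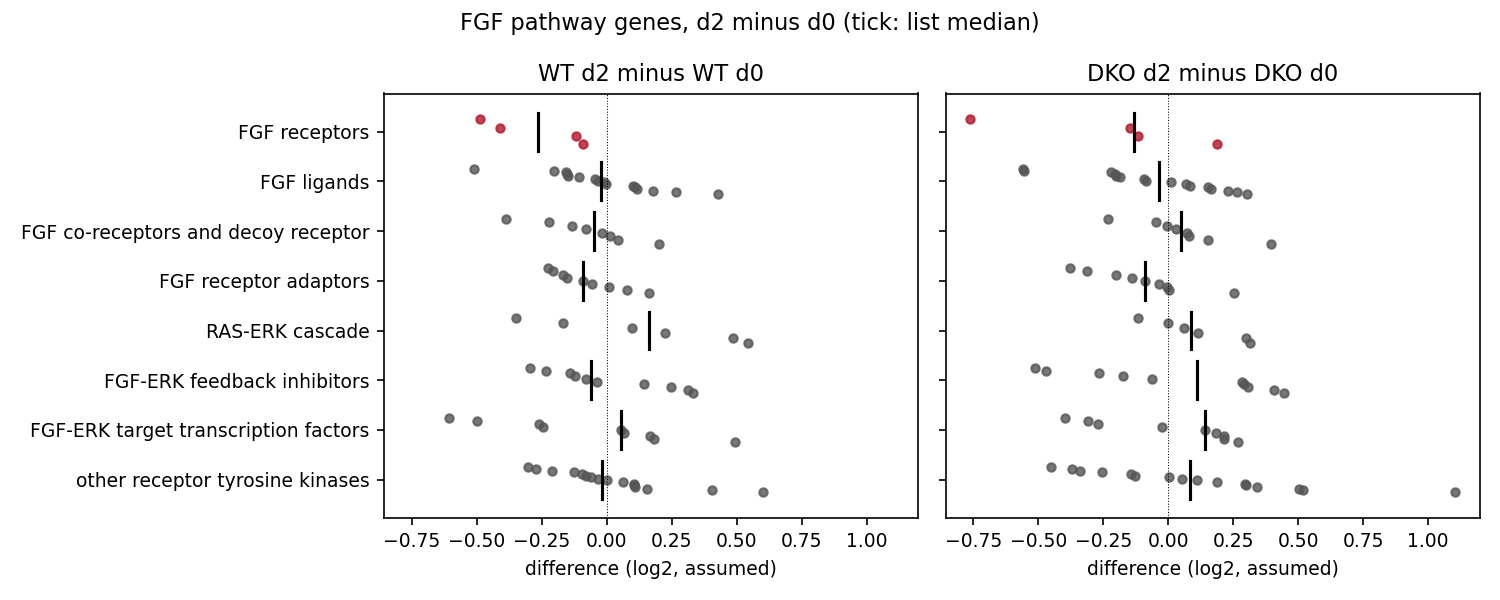
d2 minus d0 (log2, assumed; x axis) in WT and in DKO for the genes of each list (y axis), with a tick at the list median; each point is 1 gene. The 4 receptors (red, Fgfr3 included) lie between -0.49 and -0.09 in WT and between -0.76 and 0.19 in DKO, and the lists below them spread on both sides of 0.

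The genes whose values ran most like each member were found by the root mean square distance between profiles over the 4 arrays, each centred on its own mean, among 15781 genes. For Fgfr1 the nearest were the hair keratin-associated gene Krtap19-5 (0.05), the chloride channel gene Clic3 (0.05) and Ldha (0.05), the lactate dehydrogenase of glycolysis. Within a distance of 0.1 of Fgfr1 lay 21 genes (0.133%). Ldha measured 1.14 and 0.69 in WT and 1.54 and 0.87 in DKO. For Fgfr2 the nearest were the keratin gene Krt74, Plekhf2 and the ribosomal gene Rpl6, at 0.02 each, and 716 genes (4.54%) lay within 0.1. For Fgfr3 they were Adora3, Kbtbd12 and Ireb2 and for Fgfr4 Cdh3, Smpd2 and Moxd1, with 3433 (21.8%) and 3036 (19.2%) within 0.1. Flat profiles such as these were close to many genes and that of Fgfr1 to few. Among the members Fgfr3 and Fgfr4 were closest to each other, at 0.08, and Fgfr1 and Fgfr2 farthest apart, at 0.34.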

How the data were processed

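Total RNA was biotin-labelled with a kit for whole transcripts (per the labels' protocols) and read on 4 arrays, all on strip 2. The log2 values deposited by the authors come from RMA of unstated version, per the submitters' processing notes; the log base is assumed. Values this low are unusual for RMA, and neither plain RMA output nor a match of the annotation to the rows could be checked. Precision is limited by the number of arrays. The sources used here do not give whether other arrays were normalized with these, and Suz12-knockout arrays were not analysed here.

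Names came from the platform annotation, updated by Entrez number through the RefSeq table of GRCm38.p6 (23328 of 23521 probe sets matched). A gene with several probe sets (1082 of 22180) was read from the one with the highest mean. Genes at or above 0.30, the 40th percentile, on at least 1 array were counted (20015). Differences of at least 2-fold or 1.5-fold were counted. The shared changes were fitted with limma 3.58.1 in R 4.3.3 (lmFit, eBayes with trend and 7.21 prior degrees of freedom) and Benjamini-Hochberg adjustment. The fit was also run on simulated data with noise of the same size in every gene and changes of at least 2-fold. That run does not show whether changes as small as those of the receptors would be found. Python 3.11.15, numpy 2.4.6, pandas 2.3.3 and matplotlib 3.10.9 were used. Up to 4 genes per pathway list with the largest mean change, and the 3 nearest genes per member, are named, with small RNAs, pseudogenes, predicted genes and vomeronasal or olfactory receptors left out of the nearest genes. The members and lists were chosen with earlier results of these data known.

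Alternatives were equal medians, quantile normalization, cyclic loess, averaged probe sets, no filter, a filter at the 60th percentile (0.46), 300 or 3000 genes of like level, moderation without trend or robust, and an adjusted p under 0.1.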

Additional observations from a re-analysis of the deposited data

Results flagged for a closer look

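With 1 array per group, a gene whose d2 minus d0 difference has opposite signs in WT and DKO is listed here, although 48.5% of all genes do and the difference itself was not tested. Fgfr2 differed by -0.41 in WT and 0.19 in DKO, a DKO minus WT value of 0.60. The size for Fgfr2 is uncertain, since its WT d2 value was below 0.30. Of the 74 pathway genes counted, 40 had opposite signs. Among the up to 4 pathway genes per list named by the rule they were Fgfrl1 (-0.24), Gpc1 (0.53), Gpc3 (-0.25), Gpc4 (0.42), Braf (0.41), Etv4 (0.75), Igf1r (0.64) and Ephb4 (1.14), each given as the change in DKO less that in WT. Among other genes whose values are given they were Kdr (-1.05), Etv1 (-0.80), Etv5 (-0.45), Pou5f1 (-0.29), Sox17 (-0.31) and Gapdh (0.51). These values are of the probe set with the highest mean. The second probe sets of Gpc1, Etv1 and Etv5 had the same sign in both genotypes. The other Gapdh probe sets differed by 0.21 and 0.47 in WT and by -0.55 and -0.23 in DKO, the reverse of the one listed.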

How the results depend on the processing

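The 20 member differences kept their sign in the 120 alternative values, with 1 exception. The DKO change minus the WT change of Fgfr3, 0.0 as deposited, reached -0.04. Averaging probe sets or changing the filter could not alter a member difference, since each member has 1 probe set and a filter only selects genes. Only equal medians, quantile normalization and cyclic loess could change a sign. In 100 alternatives of the gene level comparison no member left the middle 95% of genes of like level. Equal medians could not change these positions, since all genes of an array shift alike. The Fgfr1 change ran from -0.50 to -0.49 in WT and from -0.85 to -0.76 in DKO. In the shared d2 change its limma p ran from 0.00694 to 0.0324 unadjusted and from 0.622 to 0.930 adjusted. At 1.5-fold, 1 member was past the threshold in DKO d2 against d0, Fgfr1, where 2.3% of all genes were as much lower. It stayed past it under every alternative. In the DKO change minus the WT change 1 member was past it, Fgfr2, where 7.59% were as much higher. Fgfr2 fell short with equal medians (0.56), quantile normalization (0.54) and cyclic loess (0.55). In the other comparisons the members past 1.5-fold numbered 0. The 74 pathway genes gave 2 in WT (Etv4 and Kdr), where 3.39% of all genes passed. Over all genes limma called 0 for the shared d2 change as deposited, 11 with equal medians, 12 with the filter at the 60th percentile and 1 each after quantile normalization and cyclic loess, and for genotype 0 against 4, 6, 1 and 1; no member was among them. In DKO d2 against d0, 62.5% of genes past 1.5-fold were higher as deposited, and 49.5% with equal medians, 47.8% after quantile normalization and 51.0% after cyclic loess. No paired analysis was possible because each group holds 1 array and the labels give no replicate numbers; the additive limma fit itself sets d2 against d0 within each genotype. Leaving out an array leaves no degree of freedom for the additive fit.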

Other observations

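Probe sets of one gene often differed in level. Over the 1082 genes with several, the gap between the highest and the lowest mean had a median of 0.25, and in 104 genes (9.61%) it exceeded 1. Gapdh had 3 probe sets with means of 0.88, 1.40 and 5.97. Their d2 changes in DKO were -0.55, -0.23 and 0.33. Etv1, an ETS factor, differed by 0.49 and -0.26 in WT on its 2 probe sets. Etv5 differed by 0.13 and 0.18 in WT on its probe sets and by 0.22 and -0.27 in DKO.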
